A study of Homo sapiens with 6 samples.

Results

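NF-kappaB is a family of transcription factors that inflammatory signals, infection and stress release from inhibitors in the cytoplasm, and its target genes include the genes that end the signal, that keep the cell alive and that recruit or talk to other cells. 5 such targets were examined here in the human ovarian cancer cell line HeyA8, an established line, in untreated cells and in cells given magnetic fluid hyperthermia (MFH), in which magnetic nanoparticles heat cells in an alternating magnetic field. They were read by 6 probes of an Illumina bead array, out of 47231 on an array whose annotation names 20046 genes, chosen by probe identifier: NFKBIA (ILMN_1773154), TNFAIP3 (ILMN_1702691), BIRC3 (ILMN_2405684), ICAM1 (ILMN_1812226) and PTGS2 (ILMN_2054297 and ILMN_1677511). The array's annotation gave the same gene for 5 of the 6 probes and did not list the BIRC3 probe, whose name here rests on the list of identifiers alone. No further probe was annotated to any of the 5 genes.

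Both groups were parental HeyA8 cells: 3 samples were untreated and 3 were treated with MFH, with 1 array each. Dose, temperature and harvest time are not given in the sources used here, and no array of nanoparticles or of a field alone was analysed here. The labels do not say whether replicates were separate cultures, so each p-value weighs a change against the spread among these arrays alone, and that spread may be technical. HeyA8 is a single line, and the comparison holds for that line only.

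In resting cells IkappaB proteins hold NF-kappaB in the cytoplasm. When cytokines such as TNF or interleukin 1 bind their receptors, the IkappaB kinase complex marks the inhibitor for destruction and the freed subunits bind kappaB sites in DNA. NFKBIA encodes IkappaB-alpha, which is made anew within the same response and shuts it off, and TNFAIP3 encodes A20, an enzyme that edits ubiquitin chains and ends signalling upstream. BIRC3 encodes cIAP2, a ubiquitin ligase that blocks cell death at the TNF receptor. ICAM1 encodes an adhesion molecule bound by leukocyte integrins, and PTGS2 encodes cyclooxygenase 2, the inducible enzyme of prostaglandin synthesis. Heat shock is known to restrain the pathway, and the comparison addresses whether these targets moved after MFH.

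The stretches upstream of the 5 genes are shown because kappaB sites are how NF-kappaB finds its targets. Each is the run of 250 bases before the annotated start in RefSeq (GRCh38.p14), given 5′ to 3′ on the gene's strand. All 5 genes had an entry. Capitals mark matches on either strand to the kappaB consensus, to GGAAATTCC, or to a pair of inverted heat shock element units, GAANNTTC or TTCNNGAA. The motif GGAAATTCC was added after the sequences were seen, and it overlaps the kappaB consensus match upstream of NFKBIA.
NFKBIA, chr14:35404750-35404999, minus strand: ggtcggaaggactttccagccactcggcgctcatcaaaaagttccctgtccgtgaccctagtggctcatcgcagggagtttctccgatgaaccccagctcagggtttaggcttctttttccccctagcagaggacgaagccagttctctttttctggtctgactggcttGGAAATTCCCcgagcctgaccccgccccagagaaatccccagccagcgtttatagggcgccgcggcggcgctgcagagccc
TNFAIP3, chr6:137867009-137867258, plus strand: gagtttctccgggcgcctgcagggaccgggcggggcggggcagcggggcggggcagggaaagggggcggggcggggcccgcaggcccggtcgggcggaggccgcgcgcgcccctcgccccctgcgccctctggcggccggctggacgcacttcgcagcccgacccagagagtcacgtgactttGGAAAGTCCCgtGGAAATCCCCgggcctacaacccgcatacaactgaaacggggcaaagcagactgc
BIRC3, chr11:102317234-102317483, plus strand: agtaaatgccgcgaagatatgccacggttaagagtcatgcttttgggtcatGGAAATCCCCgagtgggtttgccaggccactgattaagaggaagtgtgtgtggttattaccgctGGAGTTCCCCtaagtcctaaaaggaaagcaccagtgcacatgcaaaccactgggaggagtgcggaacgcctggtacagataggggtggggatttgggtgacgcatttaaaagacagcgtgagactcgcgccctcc
ICAM1, chr19:10270870-10271119, plus strand: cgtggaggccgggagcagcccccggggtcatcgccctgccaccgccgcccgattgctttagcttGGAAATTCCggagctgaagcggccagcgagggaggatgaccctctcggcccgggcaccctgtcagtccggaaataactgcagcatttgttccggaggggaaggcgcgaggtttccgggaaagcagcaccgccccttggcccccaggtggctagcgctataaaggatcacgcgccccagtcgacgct
PTGS2, chr1:186680424-186680673, minus strand: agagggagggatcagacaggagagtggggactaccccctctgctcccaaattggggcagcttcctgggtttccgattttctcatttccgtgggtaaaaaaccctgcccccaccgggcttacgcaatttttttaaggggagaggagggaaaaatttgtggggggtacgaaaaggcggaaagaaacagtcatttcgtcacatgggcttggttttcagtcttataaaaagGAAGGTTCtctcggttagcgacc

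The kappaB consensus matched once upstream of NFKBIA, beginning 81 bases before the start, and at 2 places each upstream of TNFAIP3 (67 and 55 bases before the start) and BIRC3 (199 and 135 bases). The ICAM1 and PTGS2 stretches held no match to it, but the ICAM1 stretch held GGAAATTCC, beginning 186 bases before the start. Of 35116 stretches of the same length in the table, 9.96% held the kappaB consensus and 0.413% held GGAAATTCC. GAANNTTC was found upstream of PTGS2, 23 bases before the start, and in 5.78% of all stretches. TTCNNGAA was found upstream of none of the 5 genes and in 6.62% of all. Near matches to the consensus, such as GGGACTACCC upstream of PTGS2, were not searched for or marked. A match describes letters in this window and does not show binding, and the lack of one does not show that a kappaB site is absent.

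Of the 6 probes, those of NFKBIA and ICAM1 fell after MFH, each to about 72% of its untreated level in the main processing. Those of TNFAIP3, BIRC3 and PTGS2 did not pass the test. The size for ICAM1, a dim probe, depends on the background correction and its offset. Changes are on the log2 scale of background-corrected, quantile-normalised intensities, tested with limma across 23615 probes with Benjamini-Hochberg adjustment and a threshold of 0.05. All 6 probes passed the filter on low values, a mean level above the median of all probes. By this test 12.3% of all tested probes were called, 6.58% lower and 5.7% higher, beside 2 of these 6 probes, both lower. The values of the groups did not overlap for 28.7% of all tested probes, with MFH lower for 15.8% and higher for 12.8%, beside the same 2 of these 6. In bulk RNA, fewer cells carrying a transcript and less transcript per cell cannot be told apart.

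The treatment's mark on the heat shock genes was plain. Of 15 tested probes of HSF1 and its targets, 9 rose and 0 fell by the limma test (2 had a lower value at an unadjusted p under 0.05, those of HSF1 itself and of HSP90AA1 at ILMN_1687546). HSPA6, an HSP70 that is nearly silent without stress, rose 56.0-fold at ILMN_1806165 and 32.8-fold at ILMN_1658383, and DNAJB1, an HSP40 co-chaperone, 8.79-fold. CRYAB, a small heat shock protein, rose by 4.54 on the log2 scale (3.87 to 5.37 over the alternatives), from a level above background on 1 of 3 untreated arrays, so the size of its rise is uncertain. Arrays of a group correlated at 0.9930 to 0.9946 when untreated and 0.9925 to 0.9935 after MFH, and arrays of different groups at 0.9855 to 0.9893 (Pearson, across probes, which are not independent replicates). Of probes for carcinoma markers, 10 of 15 lay above background on all 6 arrays, among them those of KRT8 and PAX8, while no probe of CDH1 did on any array. Of probes for mesenchymal markers, 7 of 17 lay above background on all 6 arrays, those of VIM, CDH2, FN1 and COL1A1, and 7 on none, among them the probes of COL3A1 and PDGFRB. Of endothelial probes, 1 of 8 lay above it on all arrays. Of immune probes, none for PTPRC, CD3E, MS4A1 or ITGAL was above background on all arrays of either group, while 5 of 19, those of CD68 and ITGB2, were above it on all 6. Of tested marker probes, 3 of 12 carcinoma probes fell and 1 of 9 mesenchymal probes rose (COL1A1) by limma. These shares, 25% and 11.1%, stand beside 14.4% of all tested probes with a gene symbol. At an unadjusted p under 0.05, 2 carcinoma probes were higher and 1 mesenchymal probe was lower. By limma 0 of 3 endothelial and 0 of 8 immune probes were called (0 and 2 at an unadjusted p under 0.05). The carcinoma probes that fell were those of KRT8 and PAX8 (limma adjusted p = 0.0381 for KRT8, and 0.000626 and 0.00385 for the PAX8 probes), and the part of these changes in the results below was not tested.

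NFKBIA was the brightest reading of the set and its untreated values were tight. Its normalised level was 12.92, 12.87 and 12.85 on untreated arrays 1, 2 and 3, and 12.16, 12.46 and 12.61 on MFH arrays 1, 2 and 3. Every MFH array lay below every untreated array, and MFH array 1 lay lowest. The mean went from 12.88 ± 0.03 to 12.41 ± 0.23 (SD, n = 3 each), so that the level was 1.38-fold lower, with a log2 change of -0.47, an SE of 0.12 and a limma adjusted p of 0.0173. The 95% interval puts the MFH level at 60.7% to 86.1% of the untreated level. In raw intensity the same arrays read 8117, 5969.8 and 7509.8 when untreated and 5805, 4990.1 and 6424 after MFH. The raw groups overlapped. The median raw intensity of whole arrays ran from 102 to 127, and the separation appears after normalization. The call was lost without untreated array 1 (log2 change -0.46, limma adjusted p = 0.0573), without MFH array 1 (-0.34, 0.0701), with median scaling (-0.37, 0.204) and with an offset of 16 (-0.47, 0.0617). The sign held in all alternatives run, several of which cannot change it.

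TNFAIP3, the other feedback gene, had lower values after MFH on most arrays but did not pass the test. Its normalised level was 8.78, 8.86 and 8.65 on the untreated arrays and 8.43, 8.55 and 8.68 on the MFH arrays. MFH array 3 lay above untreated array 3, so the groups overlapped. The log2 change was -0.21 ± 0.11 (SE), with limma adjusted p = 0.25. Its 95% interval runs from 73.8% to 101% of the untreated level, which holds no change and overlaps the interval of NFKBIA. On MFH arrays 1, 2 and 3 the values of TNFAIP3 stood in the same sequence as those of NFKBIA, lowest on array 1 and highest on array 3. Of 20713 tested probes not called, MFH array 1 was lowest for 6731 and MFH array 3 highest for 7113. The shared sequence was not tested.

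BIRC3, the survival target, gave no detectable change. Its normalised level was 10.91, 11.25 and 11.26 on the untreated arrays and 11.09, 11.17 and 11.01 on the MFH arrays. All 3 MFH values lay between the untreated extremes. The log2 change was -0.05 ± 0.11 (SE), with limma adjusted p = 0.864 and a 95% interval of 81.6% to 115% of the untreated level. Without untreated array 2 or 3 the sign turned, at a log2 change of 0.01 in both.

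ICAM1 fell, from a level near background. Its raw intensity was 199.9, 126.6 and 147.6 on the untreated arrays and 142.9, 105.1 and 143.2 on the MFH arrays. The background of each array, taken as the most common raw intensity, lay between 93.4 and 114.8. The signal above it was 96.5, 32.2 and 45.3 in untreated cells and 28.1, 11.7 and 30.5 after MFH. All 6 arrays were above background, defined as 2 SD over that mode, and MFH array 2 passed narrowly, at 105.1 against a limit of 104.4. The normalised level was 7.27, 6.75 and 6.79 on the untreated arrays and 6.48, 6.33 and 6.58 on the MFH arrays. The groups did not overlap, and untreated array 1 stood apart from its 2 fellows. ICAM1 was thus 1.39-fold lower, a log2 change of -0.48 with an SE of 0.13 (limma adjusted p = 0.0317). The 95% interval was 58.9% to 87.8% of the untreated level. The call was lost without untreated array 1, where the log2 change was -0.31 (limma adjusted p = 0.151), a size more than 1.5 times smaller. It was also lost without MFH array 1 (-0.47, 0.0738), without MFH array 2 (-0.42, 0.124), with median scaling (-0.46, 0.173) and with no background correction (-0.35, 0.0535). The sign held in all of them, though with groups that do not overlap a left-out array could hardly turn it. Background left in the values draws the fold of so dim a probe towards 1.

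PTGS2 was read by 2 probes, and neither passed the test. At ILMN_2054297 the normalised level was 7.03, 7.08 and 6.82 on the untreated arrays and 7.31, 7.08 and 6.83 on the MFH arrays. MFH array 1 was the highest and the other MFH arrays lay within the untreated range or at its edge. The log2 change was 0.10 ± 0.13 (SE), with limma adjusted p = 0.72 and a 95% interval of 88.6% to 129% of the untreated level. At ILMN_1677511 it was 6.39, 6.26 and 6.32 on the untreated arrays and 6.52, 6.18 and 6.36 on the MFH arrays, again with MFH array 1 highest and the groups overlapping. That probe was above background on 2 of 3 arrays in each group, so it could show little. Its log2 change was 0.03 ± 0.11 (SE), with limma adjusted p = 0.911. The changes at the 2 probes differed by 0.07 on the log2 scale (p = 0.8 in a two-sided exact permutation test that cannot go below 0.1), and their mean gave a change of 0.06 ± 0.11 (SE, limma adjusted p = 0.797). Without MFH array 1 both probes' changes turned negative, at -0.02 and -0.05.

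**Figure D1:**
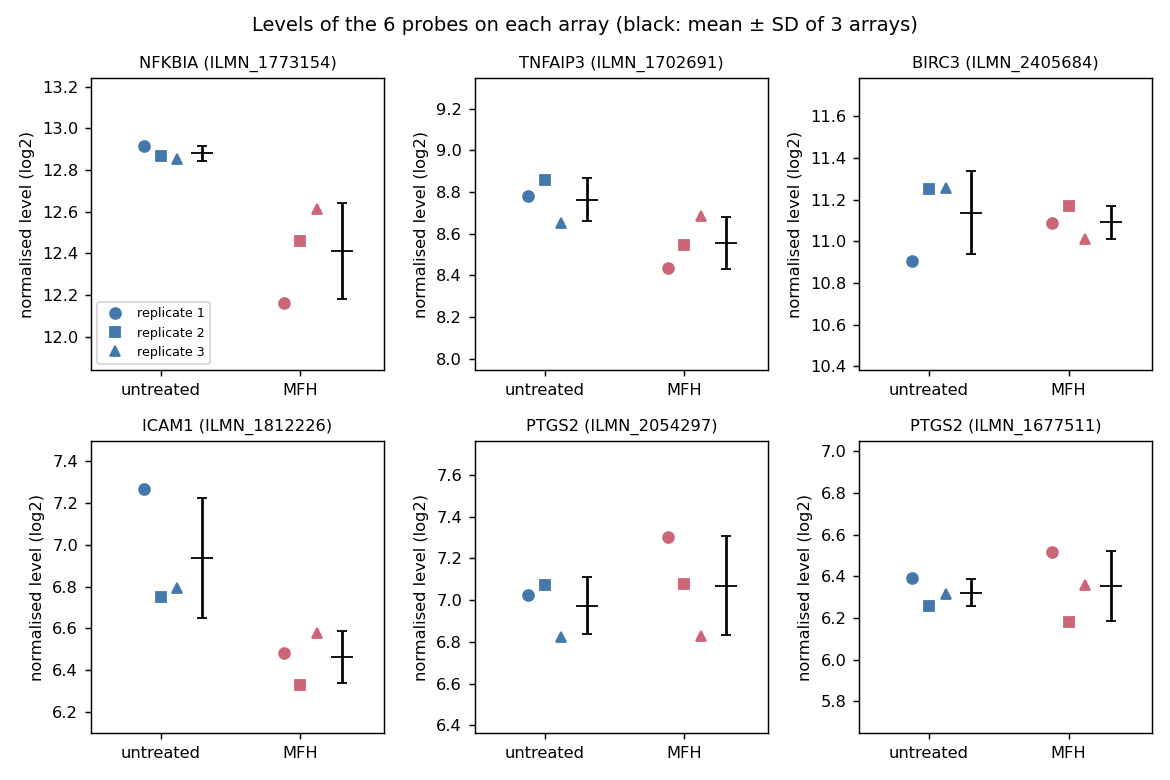
Normalised log2 level of each of the 6 probes on each array, with untreated arrays in blue, MFH arrays in red, the replicate number as the marker shape, and the mean ± SD of 3 arrays in black. The axes span the same range around different levels; the MFH arrays lie below all untreated arrays for NFKBIA and ICAM1, and the groups overlap for the others.

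**Figure D2:**
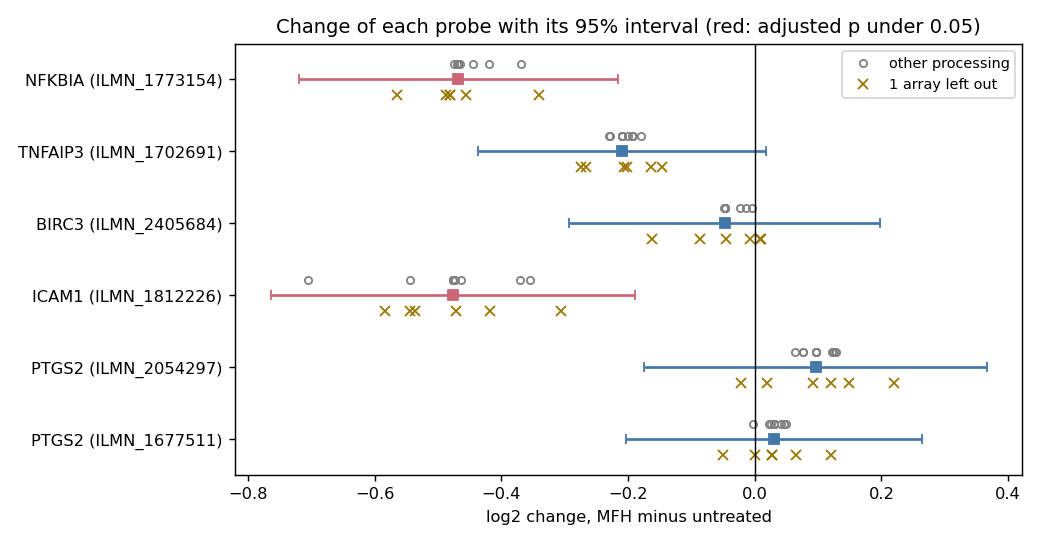
Log2 change (MFH minus untreated) of each probe as a square with its 95% interval, red where the adjusted p was under 0.05, with grey circles for other processing choices and crosses for fits with 1 array left out. NFKBIA at -0.47 and ICAM1 at -0.48 stay below 0 throughout, while BIRC3 and both PTGS2 probes have values on both sides of 0. Several of the settings cannot change a sign.

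Set among all 23615 tested probes, the changes of NFKBIA and ICAM1 lay in the lower tail. Of the tested probes, 3.62% had a lower log2 change than NFKBIA and 3.44% a lower one than ICAM1. The figure was 15.6% for TNFAIP3, 41.1% for BIRC3, and 71.5% and 58.9% for the PTGS2 probes. The median change of the 6 probes was -0.13, beside -0.01 for all tested probes. Calls depend on brightness. Tested probes were also split at the quartiles of mean level. Within the same class of level, 8.45% were called lower beside NFKBIA and BIRC3, 11.7% beside TNFAIP3, 5.74% beside ICAM1 and ILMN_2054297, and 0.474% beside ILMN_1677511.

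**Figure D3:**
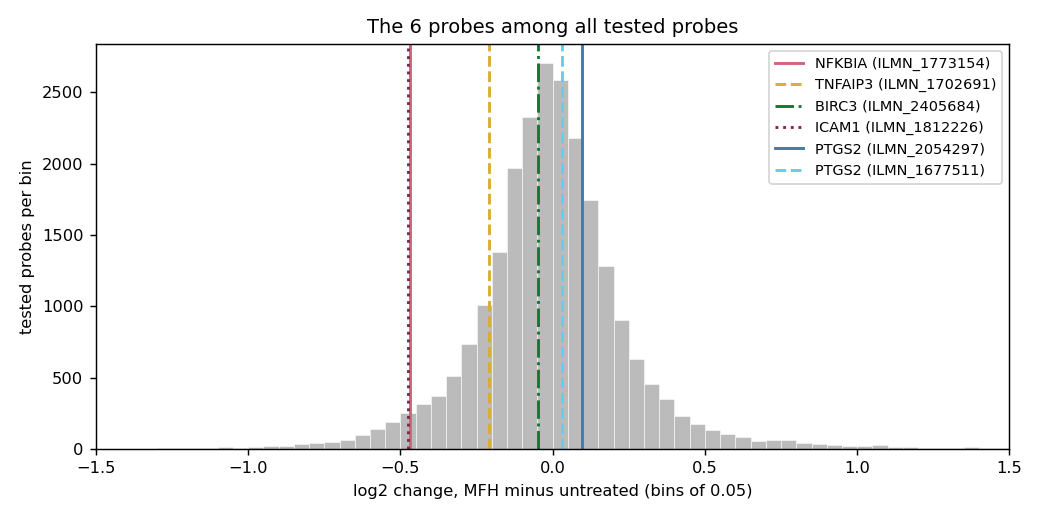
Histogram of the log2 change (MFH minus untreated) of tested probes in bins of 0.05, cut at 1.5 on either side, with vertical lines at the 6 probes. NFKBIA and ICAM1 stand together at -0.47 and -0.48, and the PTGS2 probes lie just above 0.

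Around these targets, 104 further genes of the pathway were examined in 10 lists, of which 100 had a named probe and 85 a tested one. Of 115 tested probes, 25 fell and 8 rose (28.7% called), and their median change was -0.10. Among all tested probes with a gene symbol 14.4% were called, 8.03% lower and 6.37% higher, with a median of -0.02. The lists were chosen with earlier results of these data known, and no share matched for brightness was computed for them. The difference between these shares is therefore a description and was not tested. Of those 33 calls, 16 held whichever array was left out and 14 held with median scaling. None changed sign in any alternative, though several alternatives cannot change a sign. Offset 16 gave 16 falls, and median scaling gave 11 falls and 3 rises.

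The falls included probes of 3 of the 5 genes in the list of DNA-binding subunits. In that list 4 of 7 tested probes fell and 0 rose by the limma test (0 at an unadjusted p under 0.05), and the median change was -0.53. Calls made up 57.1% of these probes, beside 14.4% of all tested probes with a gene symbol. NFKB2, the precursor of p52, read 9.58, 9.70 and 9.55 untreated and 8.54, 8.56 and 8.70 after MFH at ILMN_1799062, with the groups far apart. It fell 2.01-fold there (limma adjusted p = 1.51e-05) and 1.84-fold at ILMN_2390859 (0.000787), and another NFKB2 probe was not above background on any array. RELB, the partner of p52, fell 1.56-fold (limma adjusted p = 0.00608). NFKB1, the precursor of p50, fell 1.44-fold (limma adjusted p = 0.00809, and 0.0831 with median scaling). RELA, the main activating subunit, had a log2 change of -0.09 ± 0.15 (SE) and was not called, and neither REL probe was.

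Members of the IkappaB family other than NFKBIA also moved down in part. Of 7 tested probes 3 fell and 0 rose by the limma test (0 at an unadjusted p under 0.05), with a median of -0.22. The share called was 42.9%, beside 14.4% of all tested probes with a gene symbol. BCL3, a nuclear IkappaB that binds p50 and p52, read 9.13, 8.98 and 9.21 untreated and 7.75, 8.02 and 8.13 after MFH, with every MFH array below every untreated array. It fell 2.20-fold (limma adjusted p = 2.01e-05). NFKBIZ, another nuclear IkappaB, fell 1.49-fold at ILMN_1719695 (limma adjusted p = 0.0153), a call lost without untreated array 2 or MFH array 1, with an offset of 16 and with median scaling, at adjusted p up to 0.0638. Its second probe, which was above background on 1 untreated array, had a change of 0.16 and was not called. NFKBIE, IkappaB-epsilon, fell 1.41-fold (limma adjusted p = 0.00946), lost with median scaling or without untreated array 3, at adjusted p up to 0.0935. The NFKBIB probes and NFKBID were not called.

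Of the receptors and ligands that switch the pathway on, 7 of 17 tested probes fell and 1 rose, with a median of -0.19. In all 47.1% were called, beside 14.4% of all tested probes with a gene symbol. TNFRSF1A, the main TNF receptor, read 11.78, 11.80 and 11.88 untreated and 10.61, 10.78 and 10.86 after MFH, and the groups lay far apart. It fell 2.10-fold (limma adjusted p = 1.10e-05). The interleukin 1 genes were bright in this line, and IL1B fell 1.78-fold (limma adjusted p = 0.00602, and 0.0556 with the trend and robust variance model) and IL1A 1.63-fold (0.0135, lost without untreated array 2, MFH array 1 or MFH array 2, with an offset of 16, with median scaling and with the trend and robust model, at adjusted p up to 0.0701). The other falls, named after their values were seen, were LTBR at 1.36-fold, TNF at 1.37-fold, TRADD and CD40 at 1.30-fold and 1.31-fold. All 4 of these calls were lost with median scaling and without some arrays. The other CD40 probe, ILMN_2367818, had a change of -0.27 and was not called (limma adjusted p = 0.145). TRAF6, an adaptor of the interleukin 1 receptor, rose 1.30-fold at ILMN_1783910 (limma adjusted p = 0.0186, lost without untreated array 1, untreated array 3 or MFH array 3 and with median scaling), while its other tested probe had a change of 0.05 and was not called.

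Among kinases of the activating step 3 of 12 tested probes fell and 0 rose by the limma test (1 was higher at an unadjusted p under 0.05, that of TAB2). Calls made up 25% of this list, beside 14.4% of all tested probes with a gene symbol. MAP3K14, the kinase NIK of the p52 arm, fell 1.41-fold (limma adjusted p = 0.00532, and 0.0807 with median scaling), TAB1, a partner of TAK1, 1.31-fold at ILMN_1709114 (0.0298) and TBK1 1.28-fold (0.0338). The TAB1 call was lost when any of 4 arrays was left out and the TBK1 call when any of 5 was, and both with an offset of 16 or median scaling. The TBK1 call was also lost with the replicate number as a further term (limma adjusted p = 0.0501). Another tested TAB1 probe, ILMN_1777980, had a change of -0.06 and was not called. It was above background on 2 untreated arrays and 1 MFH array. CHUK, IKBKB and IKBKG, which encode the IkappaB kinase complex, were not called, with log2 changes between -0.15 and 0.17.

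The ubiquitin-editing genes beside TNFAIP3 went the other way in part. Of 12 tested probes 4 rose and 1 fell, with a median of 0.14. Together 41.7% were called, beside 14.4% of all tested probes with a gene symbol. CYLD, a deubiquitinase that restrains the pathway, rose 1.51-fold at ILMN_1775508 (limma adjusted p = 0.00616), and its other probe was not above background on any array. The CYLD rise began near background, at a mean raw intensity of 142.6 on the untreated arrays. Its log2 change ran from 0.46 to 0.79 over the alternatives, so its size is uncertain. RNF11, a partner of A20, rose 1.37-fold (limma adjusted p = 0.00798, and 0.164 with median scaling). TAX1BP1, another partner of A20, rose 1.28-fold and 1.24-fold at its 2 probes (limma adjusted p = 0.0261 and 0.0461), calls also lost with an offset of 16 or median scaling. The ILMN_2374770 call was lost when any of 5 arrays was left out. The ILMN_1793118 call was lost when any of the 6 was, with no filter, and with the replicate number as a further term (limma adjusted p = 0.0716). TNIP1, which binds A20 and is itself a target of NF-kappaB, fell 1.51-fold (limma adjusted p = 0.00339).

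Of 18 tested probes of survival genes beside BIRC3, 2 fell (11.1% called, beside 14.4% of all tested probes with a gene symbol) and 0 rose by the limma test (3 were higher at an unadjusted p under 0.05, those of BCL2L1 at 2 probes and GADD45B). SOD2, mitochondrial superoxide dismutase, fell 1.53-fold at ILMN_2336781 (limma adjusted p = 0.0123, and 0.0522 without untreated array 2), while its other tested probe had a change of -0.28 and was not called. MCL1, a short-lived member of the BCL2 family, fell 1.42-fold at ILMN_1803988 (limma adjusted p = 0.00616, lost with median scaling), and its other probe was not called. BIRC2 and XIAP, the closest relatives of BIRC3 examined, were not called, with log2 changes between -0.26 and 0.18.

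For other adhesion genes beside ICAM1, 12.5% of tested probes were called, beside 14.4% of all tested probes with a gene symbol. Of 8 tested probes 1 rose and 0 fell by the limma test (1 was lower at an unadjusted p under 0.05, a CD44 probe). That rise was CD44, a receptor for hyaluronan, at ILMN_1778625, which went up 1.82-fold (limma adjusted p = 0.000816), but 2 far brighter CD44 probes had changes of -0.23 and 0.12 and were not called, so the probes of this gene disagree. ICAM2 and ICAM3 were not called, and no VCAM1 probe was above background on any array.

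For the prostaglandin genes around PTGS2, 16.7% of tested probes were called, near the 14.4% of all tested probes with a gene symbol. Of 12 tested probes 2 rose and 0 fell by the limma test (0 at an unadjusted p under 0.05). PTGES3, a prostaglandin E synthase that is also the HSP90 co-chaperone p23, rose 1.64-fold, from 12.88, 12.76 and 12.84 to 13.49, 13.58 and 13.55 (limma adjusted p = 0.000232). PTGER2, a prostaglandin E receptor, rose 1.31-fold from near background (limma adjusted p = 0.0269), a call lost when any of 5 arrays was left out and with median scaling. The inducible partner of PTGS2, PTGES, was above background on 2 of 3 arrays in each group and was not called.

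Secreted targets of the pathway fell where they moved: 4 of 14 tested probes fell and 0 rose by the limma test (0 at an unadjusted p under 0.05). That is 28.6% called, beside 14.4% of all tested probes with a gene symbol. CXCL2, a neutrophil chemokine, read 10.72, 10.48 and 10.54 untreated and 8.65, 9.24 and 9.76 after MFH, a 2.57-fold fall (limma adjusted p = 0.000387). CSF3, the granulocyte growth factor G-CSF, fell 2.29-fold and 2.25-fold at 2 probes (limma adjusted p = 0.0187 and 0.0039), both calls being lost when the variance model had a trend and was robust, at adjusted p up to 0.266. At ILMN_1697069 the call was also lost with an offset of 16 (0.0744) and without untreated array 1 (log2 change -1.05, 0.068), and without MFH array 1 it held at a change of -0.70 in place of -1.20. CXCL8 fell 1.69-fold at ILMN_2184373 (limma adjusted p = 0.0195), and its other probe was not called. The call at ILMN_2184373 was lost without untreated array 2 (log2 change -0.63 in place of -0.76, 0.0859) or MFH array 1 (-0.50, 0.0647), with an offset of 16 (0.0693), with median scaling (0.0573) and with the trend and robust variance model (0.18). IL6 had a log2 change of -0.13 and was not called.

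For genes tied to the decay of short-lived mRNAs with AU-rich elements, 12.5% of tested probes were called, beside 14.4% of all tested probes with a gene symbol. Of 8 tested probes 1 fell and 0 rose by the limma test (1 was higher at an unadjusted p under 0.05, that of ZFP36L2). The fall was that of ZFP36, tristetraprolin, which binds such elements and fell 1.30-fold (limma adjusted p = 0.0258), a call lost when any of 4 arrays was left out, with an offset of 16 and with median scaling.

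**Figure D4:**
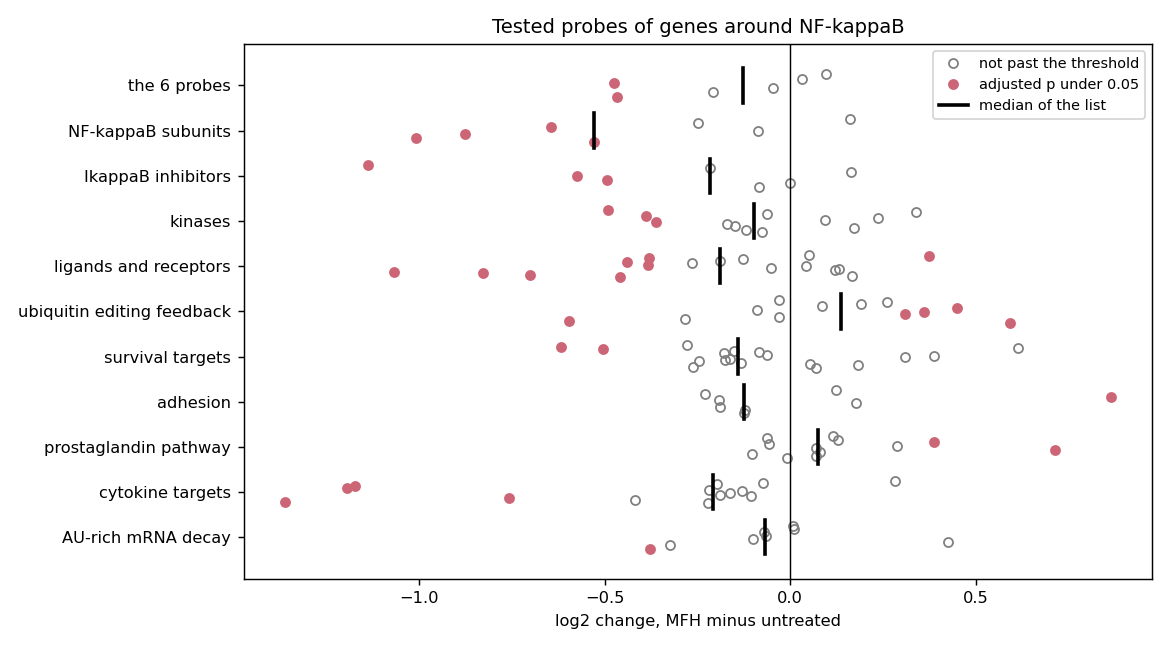
Log2 change (MFH minus untreated) of the tested probes in each list of pathway genes, as filled red circles where the adjusted p was under 0.05 and open circles otherwise, with a black bar at each list's median. Subunits have the lowest median, -0.53, and ubiquitin-editing genes the highest, 0.14.

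The probes whose levels most resembled each target over the 6 arrays were found by Pearson correlation, as a description. They were HPS6 and SNHG8 for NFKBIA (0.997 each), LYRM7 and OR1C1 for TNFAIP3 (0.995 and 0.993), VPS51 and RNFT2 for BIRC3 (0.985 and 0.981) and PACSIN2 and CERKL for ICAM1 (0.989 and 0.986). For PTGS2 they were TMEM53 and HDHD2 at ILMN_2054297 (0.985 and 0.980) and ACVR2B and KHDC4 at ILMN_1677511 (0.996 and 0.988). With 6 arrays such values are common: 209 named probes reached 0.95 with NFKBIA, 100 with TNFAIP3 and between 17 and 31 with each of the others.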

How the data were processed

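RNA of 3 untreated and 3 MFH-treated HeyA8 samples was measured on Illumina HumanHT-12 bead arrays, with 1 array a sample. The deposited table holds raw intensity per probe, with no detection p-values, and per the submitters' processing notes BeadStudio was used (version not given in the sources used here). A further table of log2 values, deposited by the authors, has equal medians on all arrays and was used as an alternative. Here intensities were background-corrected (normexp, offset 50), taken to log2, quantile-normalised and tested with limma 3.58.1 in R 4.3.3, with group as the only term, over probes whose mean level exceeded the median of all probes. The script was tested on simulated data. Precision is limited by the number of arrays. Probes were named from the array's annotation: 30113 carried 1 gene symbol, 8 several and 17110 were not listed. The 6 probes and the gene lists were chosen with earlier results of these data known. From each pathway list up to 3 called rises and 3 called falls, the largest, were named, with the 3 largest heat shock changes and the 2 most similar probes to each target. Other members are named after their values were seen. The alternatives tried were other background corrections, normalizations, filters, variance models, array weights, a replicate block, a threshold of 0.01, the authors' values, and leaving out each array.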

Additional observations from a re-analysis of the deposited data

How the results depend on the processing

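The falls of NFKBIA and ICAM1 kept their sign in each of 17 alternatives, ranging from -0.56 to -0.34 and from -0.70 to -0.31 on the log2 scale, but not their calls. The filters, the trend and robust variance model, the replicate block and the threshold of 0.01 left the log2 change as it was. The sign could not turn there, and could hardly turn with 1 array left out, since the groups did not overlap. NFKBIA did not pass with an offset of 16 (-0.47, adjusted p = 0.0617), with median scaling (-0.37, 0.204) or at a threshold of 0.01 (-0.47, 0.0173), and leaving out 1 array gave -0.56 to -0.34. ICAM1 did not pass with no background correction (-0.35, limma adjusted p = 0.0535), with median scaling (-0.46, 0.173) or at a threshold of 0.01 (-0.48, 0.0317), and leaving out 1 array gave -0.58 to -0.31. TNFAIP3 stayed negative and not called throughout, at -0.27 to -0.15. Changes of the genes not called turned sign for BIRC3 without untreated array 2 (0.0096) or 3 (0.0082), with a leave-one-out range of -0.16 to 0.0096. The PTGS2 probes turned without MFH array 1 (-0.0213 at ILMN_2054297 and -0.0496 at ILMN_1677511, with leave-one-out ranges up to 0.22 and 0.12), and ILMN_1677511 also with array weights (-0.0028). The difference between the PTGS2 probes had leave-one-out values of -0.0273 to 0.19, negative without untreated array 3 (-0.0074) or MFH array 2 (-0.0273). The cause was not tested for any of these. Of the 6 probes, 1 was called with no background correction or an offset of 16, 0 with median scaling or at 0.01, and 0 to 2 with 1 array left out: 0 without untreated array 1 or MFH array 1 and 1 without MFH array 2. Over all probes, median scaling called 1030 (549 higher, 481 lower) and the threshold of 0.01 called 1479 (719 higher, 760 lower). With 1 array left out 1995 to 2589 were called, 974 to 1191 higher and 1021 to 1398 lower, the fewest lower without untreated array 3. For the pathway lists, calls numbered 14 with median scaling (3 higher, 11 lower), 17 at 0.01 (4 higher, 13 lower), 16 lower with an offset of 16, and 21 to 32 with 1 array left out (4 to 6 higher, 17 to 26 lower). The 21 came without untreated array 3, and the rises numbered 4 without untreated array 1 or 3 and 5 without MFH array 2. The labels do not say whether equal replicate numbers mark paired samples. The correlation of deviations from the group mean was 0.0039, 0.0601 and -0.0361 for arrays that share a number, and for other pairs -0.1192 to 0.1005. Arrays that share a number were thus no more alike than others, which cannot settle whether they were paired. With the replicate block 2870 probes were called, 2710 of them shared, and 32 in the pathway lists, with NFKBIA at -0.47 (limma adjusted p = 0.0204) and ICAM1 at -0.48 (0.0213). The block ended the calls of TBK1 (0.0501) and of TAX1BP1 at ILMN_1793118 (0.0716). A correction from detection p-values and a slide block were not run, since the table used here holds neither. Dim signal limits ICAM1 and both PTGS2 probes.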

Other observations

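Among the 25 probes of the pathway lists that fell, MFH array 1 held the lowest of the MFH values for 17 and MFH array 3 the highest for 20. Over all 1555 probes that fell, MFH array 1 was lowest for 608 and MFH array 3 highest for 664. NFKBIA and TNFAIP3 had the same sequence, and in ICAM1 MFH array 2 was lowest and MFH array 3 highest. The probes share the 3 arrays, and the pattern was noticed in these data and not tested.

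GADD45B, a stress-induced survival gene that NF-kappaB is known to switch on, read 8.91, 8.94 and 9.02 on the untreated arrays and 10.35, 9.27 and 9.08 on the MFH arrays (normalised log2 level). MFH array 1 stood apart from the other MFH arrays. The log2 change was 0.61 ± 0.23 (SE) and did not pass the limma test (adjusted p = 0.104), and without MFH array 1, a setting chosen after seeing the data, it was 0.22 ± 0.11 (limma adjusted p = 0.269). BCL2L1, which encodes the survival protein BCL-xL, had log2 changes of 0.31 and 0.39 at its 2 probes and was not called (limma adjusted p = 0.0643 and 0.0739).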
